A study of Mus musculus with 18 samples.

Results

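Collagen and laminin chain genes were followed across 6 groups of mouse testis libraries. Members were the genes of the deposited expression table whose symbol begins like a collagen chain (Col, a number, a, a number) or a laminin chain (Lama, Lamb or Lamc and a number). This rule matched 56 of 20985 genes. One of them, Col4a3bp, matches by its letters only, encodes the ceramide transfer protein and was set apart, which left 55 chain genes. They were sorted by known role into 8 basement membrane collagens, 11 laminins, 11 fibrillar collagens, 6 type VI collagens, 9 fibril-associated collagens and 10 other collagens. Of the 55, 39 reached 1 FPKM in at least 3 of the 18 libraries and were tested among 14164 genes. FPKM is the number of sequenced fragments scaled to transcript length and library depth.

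The libraries came from whole testis of ICR mice, an outbred stock, at 10 weeks of age. Each group had 3 libraries. The control group is named only as control. Mice of the AOS group were given alginate oligosaccharide (AOS), a short-chain product of seaweed alginate, at a dose of 10 mg/kg. Streptozotocin (STZ), a beta-cell toxin with which diabetes is induced in rodents, was given to the STZ group, and STZ with AOS at 10 mg/kg to the STZ+AOS group. The STZ+AOS-FMT and STZ+control-FMT groups received STZ and a faecal microbiota transplant (FMT), read from the labels as coming from AOS-treated or control donors. The label of the STZ+AOS-FMT group names AOS at 10 mg/kg, read here as the dose of the donors. The labels state neither the STZ dose nor whether the libraries of a group are from separate animals, so the p-values cover the spread between libraries, which may be technical.

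Seminiferous tubules are wrapped by a basement membrane that Sertoli cells and peritubular myoid cells build together. Its scaffold is a network of type IV collagen heterotrimers and a network of laminins, each an alpha, a beta and a gamma chain, tied together by nidogen and perlecan. The space between tubules holds fibrils of types I and III collagen and microfibrils of type VI collagen, made mainly by fibroblast-like cells.

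Whole testis mixes these cells with a large majority of germ cells, and in such bulk samples more cells of a type and more RNA per cell cannot be told apart. Totals of FPKM per library lay between 561038 and 622169, and correlations of log2 values between replicates lay between 0.9782 and 0.9946. The STZ libraries stood apart from the other 15 on the first principal component, at 26.2, 60.9 and 61.8 against -16.2 to -1.92, with STZ replicate 1 nearest to the rest. Among tested members STZ replicate 1 was the lowest STZ library for 29 of 39. The summed epididymis markers were high in control replicate 3 and STZ+control-FMT replicates 2 and 3 (160.9, 260 and 287.3 FPKM, against 2.46 to 18.59 FPKM in the other libraries). In the first 2 of these libraries the sum was nearly all Crisp1 (158.77 and 255.65 FPKM). In STZ+control-FMT replicate 3 it also held Defb41 (82.69 FPKM), Cst11 (77.81 FPKM) and Lcn8 (70.21 FPKM), which were at most 2.02 FPKM elsewhere.

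Several type IV chain genes lie in head-to-head pairs, so the sequences between paired starts are shown here as the stretch both members of a pair have in common. Sequences are from the RefSeq promoter table (GRCm38.p6), 5′ to 3′, without exon bases, with capitals for a GC box (GGGCGG, or CCGCCC on the other strand), a CCAAT box or a TATA box (TATAAA), all searched on both strands. Col4a4 (chr1:82448423-82586849, minus strand) and Col4a3 (chr1:82586921-82722059, plus strand) start 71 bases apart, and the whole interval chr1:82586850-82586920 is given on the plus strand. Col4a6 (chrX:141165403-141474076, minus strand) and Col4a5 (chrX:141475385-141689234, plus strand) start 1308 bases apart. For these the bases just upstream of each start are given, chrX:141474077-141474326 on the minus strand and chrX:141475169-141475384 on the plus strand. The GENCODE exons of Col4a1 (chr8:11198423-11312826, minus strand) and Col4a2 (chr8:11312805-11449287, plus strand) overlap by 22 bases at their starts, and no bases of these exons are shown.
Col4a4 to Col4a3: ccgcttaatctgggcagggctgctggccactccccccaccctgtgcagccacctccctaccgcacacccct
Col4a6 upstream: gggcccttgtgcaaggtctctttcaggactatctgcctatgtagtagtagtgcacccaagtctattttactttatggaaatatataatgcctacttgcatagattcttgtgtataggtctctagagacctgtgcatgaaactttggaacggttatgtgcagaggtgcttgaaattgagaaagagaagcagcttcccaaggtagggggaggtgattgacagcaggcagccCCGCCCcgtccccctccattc
Col4a5 upstream: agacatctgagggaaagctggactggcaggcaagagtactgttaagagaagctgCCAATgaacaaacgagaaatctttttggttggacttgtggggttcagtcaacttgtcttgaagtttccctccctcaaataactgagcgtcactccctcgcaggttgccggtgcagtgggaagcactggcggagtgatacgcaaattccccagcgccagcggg

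Upstream sequences of Lama5, a laminin gene, and Col3a1, an interstitial collagen gene, are set side by side as examples of unlike base composition. No relation of these sequences to the results in STZ was tested. The Lama5 stretch (chr2:180225860-180226109, minus strand) held 4 GC boxes at 72.4% G and C. The Col3a1 stretch (chr1:45311288-45311537, plus strand) held a TATA box and no GC box at 35.2% G and C. The 44 member promoters in the table (40 genes) had a median of 59.5% G and C, and all 32851 promoters 52.7%. A GC box was found in 59.1% of the member promoters and in 35.7% of all promoters, shares not adjusted for this composition. These shares and the next ones cover whole promoter windows, which reach past the start, unlike the stretches printed. A CCAAT box was in 31.8% and 37.4% and a TATA box in 11.4% and 13.6%. These matches describe letters in a window and are no evidence of binding.
Lama5 upstream: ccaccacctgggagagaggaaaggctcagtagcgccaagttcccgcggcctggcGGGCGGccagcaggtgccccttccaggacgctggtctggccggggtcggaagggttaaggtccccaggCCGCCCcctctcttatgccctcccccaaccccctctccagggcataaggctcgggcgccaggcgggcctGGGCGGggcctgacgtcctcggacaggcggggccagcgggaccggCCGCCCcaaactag
Col3a1 upstream: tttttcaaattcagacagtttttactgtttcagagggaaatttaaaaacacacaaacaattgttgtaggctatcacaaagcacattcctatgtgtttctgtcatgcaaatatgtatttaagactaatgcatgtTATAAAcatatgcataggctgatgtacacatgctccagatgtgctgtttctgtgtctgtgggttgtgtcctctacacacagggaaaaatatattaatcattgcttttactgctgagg

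STZ against control asks how the testis transcriptome of the STZ group differs. Of 39 tested members, 17 rose and 3 fell (limma, adjusted p under 0.05), or 43.6% and 7.69%, and among all 14164 genes 43.2% rose and 12% fell. The members' share of calls was thus near that of all genes, and their median log2 difference was 0.26 against 0.17 over all genes. This rested on 1 library: without STZ replicate 1, 26 members rose, or 66.7%, against 48.6% of all genes, and without STZ replicate 2 or 3 the members had 15 and 14 rises (38.5% and 35.9%, against 37.3% and 35.4%). The calls were uneven between classes: 6 of 8 basement membrane collagens and 8 of 9 laminins rose, and none of the 6 fibrillar collagens passed the test in either direction, although Col1a1, Col1a2, Col3a1 and Col5a1 did without STZ replicate 1. The class medians were 0.59, 0.67 and 0.25. The 3 STZ libraries lay wholly above the 3 control libraries for 14 members, 35.9% of those tested, and wholly below for 2 (42.1% and 11.5% of all genes). Type VI collagens had 2 of 5 raised, fibril-associated collagens 1 raised and 2 lower of 7, and the other collagens 1 lower of 4. No test compared one class with another. Col4a5, Col4a6, Lama4 and Lama5 entered the test only through the STZ libraries. Among the 35 members that reached the filter without those libraries, 13 rose and 3 fell, where 42% and 12.4% of 13701 genes did, with 4 of 6 basement membrane collagens and 6 of 7 laminins raised. The split depended on scaling. With each library centred on its median gene, 10 members rose and 7 fell, and with quantile normalization 9 rose and 9 fell. The shares of all genes with these scalings are not given here, so these counts have no background beside them. Centring lowered the log2 difference of Lamb2 from 1.19 to 0.85 and that of Lama1 from 1.15 to 0.81, and both kept their calls. Called members whose direction turned with centring were Col4a4, Col4a6, Col6a4 and Col14a1. Col2a1 and Col16a1, not called in the main fit, were called lower with centring. The 8 genes called higher under each of the 14 alternatives run were Col4a1, Col4a2, Col4a5, Col18a1, Lama1, Lamb2, Lamc1 and Lamc3.

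**Figure D1:**
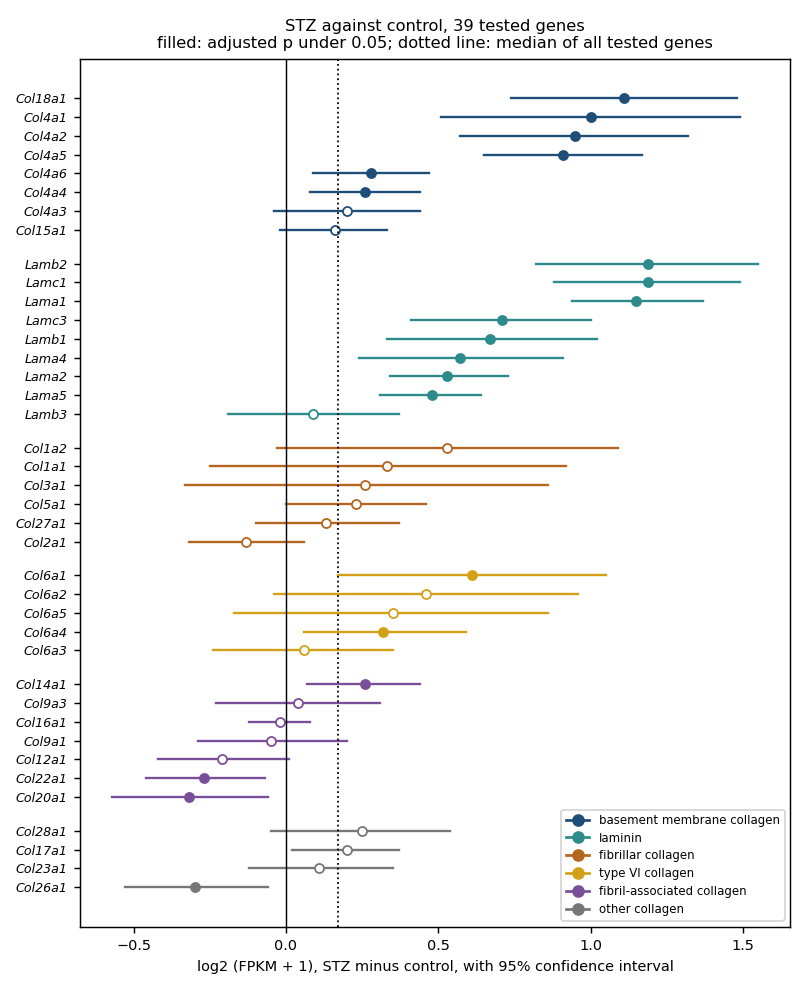
Log2 differences, STZ minus control, of the 39 tested collagen and laminin genes by class on log2(FPKM + 1), with 95% confidence intervals (n = 3 against 3) and the all-gene median marked. Laminin and basement membrane collagen genes lie furthest to the right, with Lamb2 and Lamc1 at 1.19, and Col22a1, Col20a1 and Col26a1 lie to the left of 0.

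Col4a1 and Col4a2 encode the chains of the type IV network found in nearly every basement membrane. Col4a1 measured 3.28, 3.61 and 3.96 FPKM in control and 4.48, 12.81 and 9.38 FPKM in STZ libraries. In the AOS libraries it measured 2.7, 3.3 and 3.19 FPKM, in STZ+AOS 3.9, 4.07 and 2.64 FPKM, in STZ+AOS-FMT 2.94, 3.25 and 2.99 FPKM and in STZ+control-FMT 3.3, 3.88 and 4.25 FPKM. Each STZ library lay above every other library, STZ replicate 1 only just. The log2 difference, STZ minus control, was 1.00 ± 0.23 (SE, n = 3 each, limma adjusted p = 0.0018).

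Col4a2 measured 3.29, 3.37 and 3.79 FPKM in control and 4.94, 10.08 and 8.77 FPKM in STZ libraries, with a log2 difference of 0.95 ± 0.18 (SE, limma adjusted p = 0.00035). It lay between 2.8 and 4.35 FPKM in the other 12 libraries, below all STZ libraries. The Col4a1 level was 0.804 to 1.27 times that of Col4a2 in all 18 libraries, so this head-to-head pair kept close to an even ratio of levels per length.

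Col18a1 encodes the collagen that gives rise to endostatin. It measured 3.41, 3.53 and 3.72 FPKM in control and 5.58, 12.05 and 10.12 FPKM in STZ libraries. In the AOS libraries it measured 3.03, 3.1 and 2.96 FPKM, and in the 9 libraries given STZ with AOS or a transplant it lay between 2.36 and 3.35 FPKM. Its mean in STZ was 2.6 times that of control, a log2 difference of 1.11 ± 0.17 (SE, limma adjusted p = 7.9e-05), with no overlap between STZ and any other group.

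Col15a1, the relative of Col18a1, had the highest mean of the basement membrane collagens over the 18 libraries, though not in STZ, where Col18a1, Col4a1 and Col4a2 were above it. It measured 5.78, 5.53 and 6.26 FPKM in control and 6.13, 6.8 and 7.03 FPKM in STZ libraries, which overlapped (log2 difference 0.16 ± 0.08 SE, limma adjusted p = 0.12). The chains of the more restricted type IV networks, Col4a3 to Col4a6, differed among themselves. Col4a5, mutated in X-linked Alport syndrome in people, had a mean of 0.847 FPKM in control and 2.52 FPKM in STZ (log2 difference 0.91, limma adjusted p = 1.9e-05). Its paired neighbour Col4a6 went from 0.723 to 1.09 FPKM (log2 difference 0.28, limma adjusted p = 0.016).

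The ratio of Col4a5 to Col4a6 levels was 1 to 1.3 in control and 1.52 to 2.98 in STZ libraries. Col4a4 had a log2 difference of 0.26 (limma adjusted p = 0.018, and 0.11 without STZ replicate 3) and Col4a3 of 0.20 (limma adjusted p = 0.14, and 0.0023 without STZ replicate 1), and their interval is printed above. Both differences, and that of Col4a6, were below 0 with each library centred on its median gene (-0.08 for Col4a4, -0.14 for Col4a3 and -0.06 for Col4a6).

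Among the laminin alpha chains Lama1, whose chain assembles in early embryonic and some adult epithelial basement membranes, had the smallest adjusted p of all members. It measured 1.84, 1.84 and 1.63 FPKM in control and 4.07, 6.06 and 5.54 FPKM in STZ libraries. The AOS libraries held 1.71, 1.71 and 1.4 FPKM, the STZ+AOS libraries 2.03, 1.84 and 1.85 FPKM, the STZ+AOS-FMT libraries 1.74, 1.68 and 1.86 FPKM and the STZ+control-FMT libraries 1.83, 1.88 and 2.02 FPKM. All STZ libraries lay well above the other 15, which ranged from 1.4 to 2.03 FPKM. The log2 difference was 1.15 ± 0.10 (SE, limma adjusted p = 4e-07), and the mean in STZ was 2.95 times that of control.

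Lama2, the alpha chain of muscle and nerve basement membranes, measured 2.4, 2.72 and 2.57 FPKM in control and 3.44, 4.33 and 4.78 FPKM in STZ libraries (log2 difference 0.53 ± 0.09 SE, limma adjusted p = 0.00019). No control library reached the STZ range of Lama2. The ratio of Lama1 to Lama2 levels averaged 0.692 in control and 1.25 in STZ, so the order of these chains by level reversed. Lama4, the alpha chain of blood vessels, and Lama5, widespread in adult epithelia, rose by 0.57 and 0.48 on the log2 scale (limma adjusted p = 0.0061 and 9.5e-05), calls that ended with median centring (limma adjusted p = 0.13 and 0.17). Lama5 measured 1.08, 1.1 and 1.09 FPKM in STZ libraries and 0.49 to 0.53 FPKM in control.

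Lamb2 and Lamb1 encode the beta chains that pair with these alpha chains. Lamb2, the most abundant laminin transcript, measured 5.7, 5.28 and 6.53 FPKM in control and 9.53, 16.58 and 19.24 FPKM in STZ libraries. In the AOS libraries it measured 4.48, 5.52 and 4.54 FPKM, and in the 9 libraries given STZ with AOS or a transplant 4.83 to 6.27 FPKM. STZ did not overlap any group, and the log2 difference from control was 1.19 ± 0.17 (SE, limma adjusted p = 3.8e-05).

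Lamb1 measured 2.24, 2.35 and 2.72 FPKM in control and 2.71, 5.38 and 5.94 FPKM in STZ libraries (log2 difference 0.67 ± 0.16 SE, limma adjusted p = 0.0026), and STZ replicate 1 fell within the control range. The gamma chains were raised as well. Lamc1, the common gamma chain, measured 1.8, 2 and 1.69 FPKM in control and 3.95, 6.95 and 5.75 FPKM in STZ libraries (log2 difference 1.19 ± 0.14 SE, limma adjusted p = 7.7e-06). Its values in the other 12 libraries lay between 1.3 and 1.97 FPKM, below every STZ library. Lamc3 measured 2.71, 2.87 and 3.03 FPKM in control and 3.54, 6.53 and 6.36 FPKM in STZ libraries, again without overlap (log2 difference 0.71 ± 0.14 SE, limma adjusted p = 0.00059). Lamb3, a chain of the laminin that anchors skin epithelium, was the tested laminin without a call (log2 difference 0.09, limma adjusted p = 0.58).

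**Figure D2:**
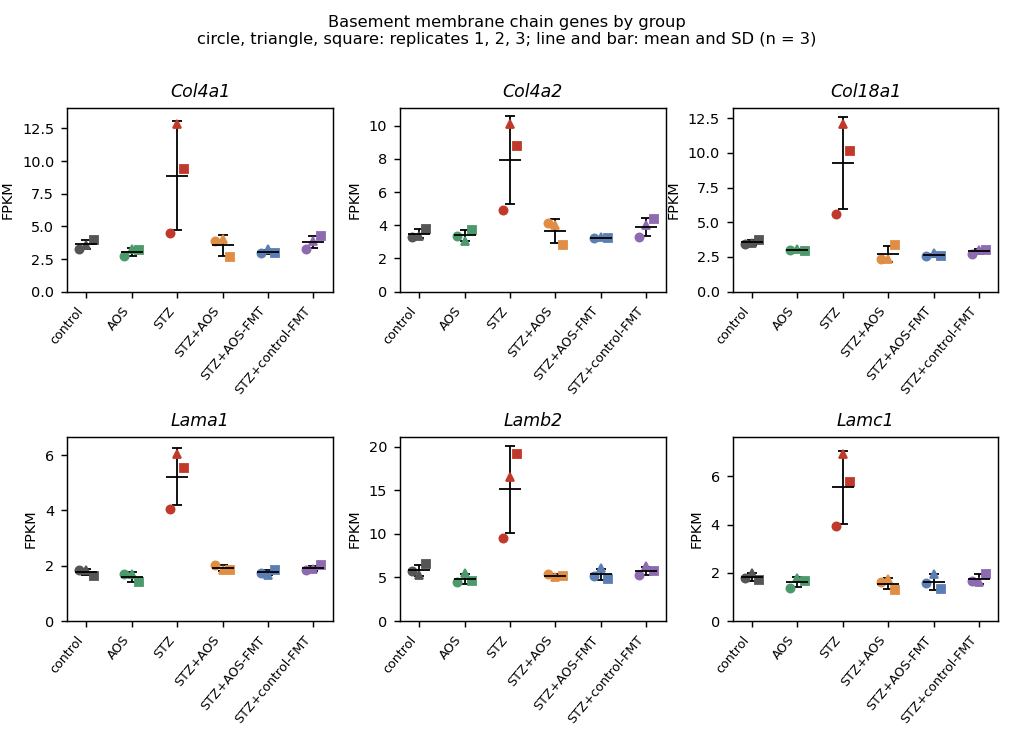
FPKM of 3 basement membrane collagen genes and 3 laminin genes in each library by group, with the mean and SD (n = 3). The STZ libraries lie above all others in each panel, with STZ replicate 1 (circle) lowest of them, for example Col4a1 at 4.48 FPKM against 12.81 and 9.38 FPKM.

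Summed over their genes, basement membrane collagens held 21.83 to 24.17 FPKM per control library and 28.75 to 51.95 FPKM per STZ library. Laminins held 20.76 to 22.2 FPKM and 33.21 to 54.68 FPKM. Cell type markers were counted in the same comparison, in which 43.2% of all tested genes rose and 12% fell. All 15 tested Sertoli cell markers rose, and their sum went from 937.2 to 1008 FPKM in control to 2123 to 2832 FPKM in STZ libraries. Peritubular myoid markers had 9 higher and 1 lower of 11 (sum 339.6 to 363.1 and 384.7 to 452.3 FPKM). Actg2, the marker that fell, was the largest part of this sum (247.85 FPKM in control replicate 1, 161.61 FPKM in STZ replicate 2). Endothelial markers had 9 higher of 11 (19.11 to 22.56 and 30.04 to 40.14 FPKM) and fibroblast markers 5 higher of 10 (86.86 to 92.01 and 209 to 294.2 FPKM). Dcn was the largest part of the fibroblast sum (44.24 of 92.01 FPKM in control replicate 1, 182.66 of 294.2 FPKM in STZ replicate 3). Macrophage markers had 9 higher and 1 lower of 11, and without Cd163 and Itgam, which entered the test only through the STZ libraries, 7 higher and 1 lower of 9. The fibroblast list held 1 such gene, Dpt, which was not called, and had 5 higher of the other 9. Adipose markers had 1 higher of 7, and their sum was 187.2 FPKM in STZ replicate 3, against 20.83 and 28.14 FPKM in the other STZ libraries and 17.56 to 35.6 FPKM in control. Leydig markers had 1 higher of 10, and all 10 elongating spermatid markers fell. Per 1000 FPKM of the Sertoli sum, the laminin sum was 21.1 to 23.7 FPKM in control and 15.6 to 20 FPKM in STZ libraries. In AOS and STZ+AOS libraries this measure was 19.3 to 20.7 and 17.8 to 19.4 FPKM. In STZ+AOS-FMT and STZ+control-FMT libraries it was 20 to 22.7 and 21.3 to 22.8 FPKM. Clu was the largest part of the Sertoli sum (516.6 of 1008 FPKM in control replicate 1, 1545.21 of 2832 FPKM in STZ replicate 2). The part of cell composition in the raised chain genes was not tested.

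The fibrillar collagens are the chains of the interstitial fibrils. Col1a2, the second chain of type I collagen, measured 7.89, 9.81 and 9.12 FPKM in control and 7.48, 16.01 and 19.2 FPKM in STZ libraries. STZ replicate 1 lay below all control libraries and the other STZ libraries above them (log2 difference 0.53 ± 0.26 SE, limma adjusted p = 0.10). Col3a1, the chain of type III collagen, measured 6.49, 9.34 and 8.73 FPKM in control and 5.26, 11.79 and 15.2 FPKM in STZ libraries (log2 difference 0.26 ± 0.28 SE, limma adjusted p = 0.45). Col1a1, the other type I chain, measured 2.65, 3.8 and 4.33 FPKM in control and 2.71, 5.45 and 6.77 FPKM in STZ libraries, so that STZ replicate 1 fell within the control range (limma adjusted p = 0.32). STZ replicate 3, the library with the high adipose sum, was the highest STZ library for all 3 genes, and the part of fat in them was not tested. Without STZ replicate 1 the limma adjusted p was 0.041 for Col1a1, 0.0014 for Col1a2 and 0.016 for Col3a1, with log2 differences of 0.64, 0.90 and 0.66. The absence of a call for these 3 genes thus rests on that library. With median centring of all libraries Col1a1 and Col3a1 lay at -0.01 and -0.08, and Col1a2 at 0.18. In STZ replicate 1 the Leydig marker sum was 1883 FPKM, against 12350 and 13200 FPKM in the other STZ libraries and 3742 to 4254 FPKM in control. Insl3 alone held 1574.39, 10966.6 and 11438.49 FPKM of these sums in STZ replicates 1, 2 and 3.

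Col5a1, a minor chain of type I fibrils that helps to set their diameter, measured 3.74, 3.57 and 4.8 FPKM in control and 4.49, 5.33 and 4.84 FPKM in STZ libraries, which overlapped (log2 difference 0.23, limma adjusted p = 0.08). It was called without STZ replicate 1 (0.28, limma adjusted p = 0.049), without control replicate 3 (0.34, limma adjusted p = 0.019) and without the 3 libraries high in epididymis markers (limma adjusted p = 0.021), and lay at -0.11 with median centring and -0.17 with quantile normalization. Col2a1 and Col27a1, fibrillar chains best known from cartilage, varied less. Col2a1 measured 6.1, 6.28 and 6.1 FPKM in STZ and 7.78, 6.48 and 6.33 FPKM in control libraries, lower without overlap but not past the test (limma adjusted p = 0.23). With median centring Col2a1 was called lower (-0.47, limma adjusted p = 6e-04). Col27a1 measured 4.76, 4.38 and 5.15 FPKM in STZ and 3.95, 4.05 and 4.77 FPKM in control libraries, which overlapped (limma adjusted p = 0.33).

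Type VI collagen forms beaded microfibrils around cells. Col6a1 measured 4.69, 5.63 and 6.33 FPKM in control and 6.01, 8.7 and 13.41 FPKM in STZ libraries (log2 difference 0.61 ± 0.21 SE, limma adjusted p = 0.02). This call ended without STZ replicate 3 (0.34, limma adjusted p = 0.14), without control replicate 1 (limma adjusted p = 0.081) and with median centring (limma adjusted p = 0.21). Col6a2 measured 3.24, 4.02 and 4.06 FPKM in control and 3.4, 5.8 and 8.41 FPKM in STZ libraries (log2 difference 0.46 ± 0.23 SE, limma adjusted p = 0.11). For both, STZ replicate 1 fell within the control range. Col6a4 rose by 0.32 on the log2 scale (limma adjusted p = 0.04), from 2.1, 1.92 and 2.54 FPKM in control to 2.44, 3.52 and 3.02 FPKM. It lay at -0.02 with median centring, and the call ended when STZ replicate 2 or 3 or control replicate 1 or 2 was left out (limma adjusted p = 0.17, 0.093, 0.096 and 0.14). Col6a5, an alternative partner of the Col6a1 and Col6a2 chains, measured 0.97, 1.88 and 3.34 FPKM in STZ and 0.96, 1.47 and 1.48 FPKM in control libraries (limma adjusted p = 0.24).

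**Figure D3:**
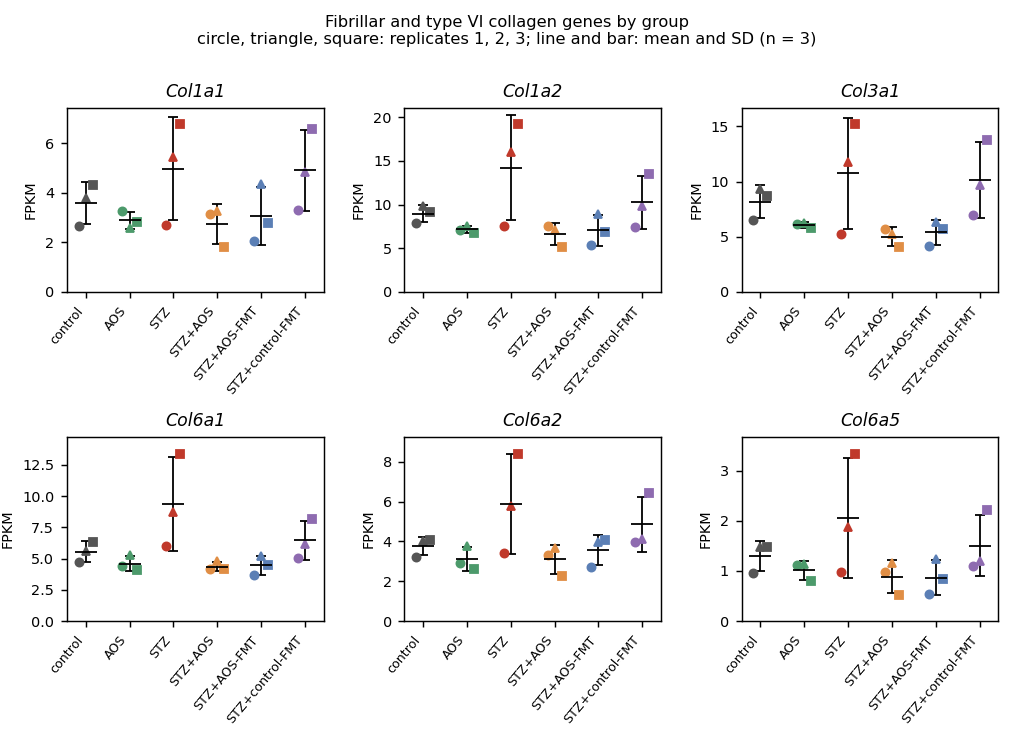
FPKM of interstitial fibrillar and type VI collagen genes in each library by group, with the mean and SD (n = 3). STZ replicates 2 and 3 stand above the control libraries while STZ replicate 1 (circle) lies within or below them, and STZ+control-FMT replicate 3 (square) is high, with Col3a1 at 13.81 FPKM.

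The most abundant collagen transcripts of these testes were fibril-associated. Col22a1, known from junctions of muscle and tendon, measured 68.43, 72.24 and 70.66 FPKM in control and 63.19, 57.24 and 55.15 FPKM in STZ libraries, a fall without overlap (log2 difference -0.27 ± 0.09 SE, limma adjusted p = 0.021). Col16a1 measured 31.18, 32.3 and 33.99 FPKM in control and 33.28, 31.53 and 31.44 FPKM in STZ libraries (limma adjusted p = 0.78). With median centring Col16a1 was called lower (-0.36, limma adjusted p = 0.00036). Col20a1 measured 10.66, 10.74 and 11.37 FPKM in control and 11.4, 6.69 and 8.15 FPKM in STZ libraries. It fell (log2 difference -0.32 ± 0.12 SE, limma adjusted p = 0.035) although STZ replicate 1 lay above all control libraries. Col26a1, a collagen first described in testis and ovary, measured 5.32, 6.32 and 6.74 FPKM in control and 4.31, 4.4 and 5.76 FPKM in STZ libraries (log2 difference -0.30 ± 0.11 SE, limma adjusted p = 0.035), with overlap. The 3 calls depended on single libraries: 0 members were called lower without STZ replicate 2 or without control replicate 2, and at most 2 without any other library. The size of the difference moved for Col20a1, to -0.16 without STZ replicate 2 (limma adjusted p = 0.21). Over all alternatives it stayed at or below -0.22 for Col22a1 and at or below -0.23 for Col26a1.

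Col9a3 measured 4.28, 4.38 and 5.86 FPKM in control and 5.59, 5.02 and 4.35 FPKM in STZ libraries. Its exons share 234 bases with Tcfl5 on the opposite strand, and library strand is not given in the sources used here, so its level is uncertain. The same holds for members that overlap opposite-strand transcripts, such as Lamc3 (382 bases), Col4a3 (563 bases) and Lama2 (631 bases). Col14a1, which binds the surface of type I fibrils, was the raised member of this class (log2 difference 0.26, limma adjusted p = 0.021), and turned to -0.09 with median centring. Of the other collagens, Col28a1, Col23a1 and Col17a1, the hemidesmosome collagen, had log2 differences of 0.25, 0.11 and 0.20, none past the test (limma adjusted p = 0.15, 0.4 and 0.054).

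**Figure D4:**
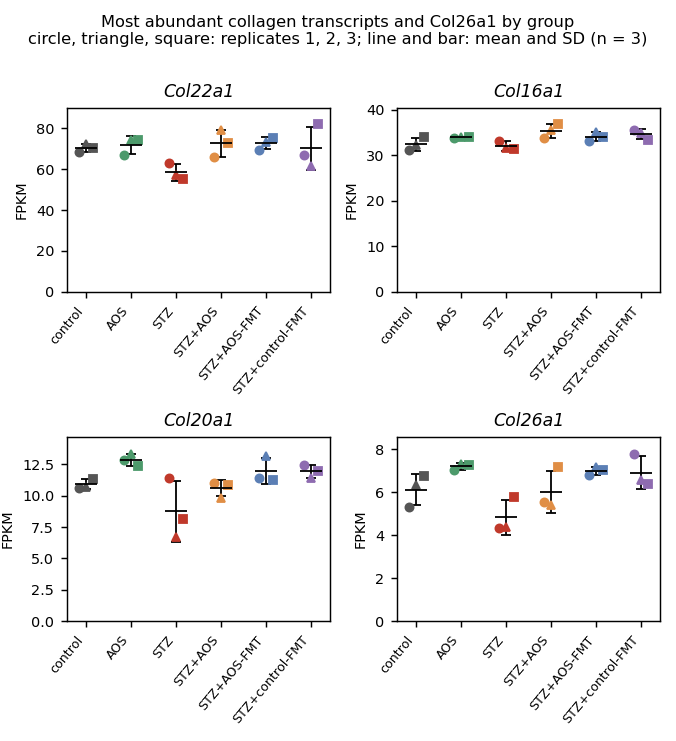
FPKM of Col22a1, Col16a1, Col20a1 and Col26a1 in each library by group, with the mean and SD (n = 3). Col22a1 lies between 55.15 and 63.19 FPKM in STZ libraries and between 68.43 and 72.24 FPKM in control, and Col16a1 shows no such step.

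The 16 members below the filter lay between 0 and 1.6 FPKM. Col13a1, a transmembrane collagen, averaged 0.137 FPKM in control and 1.09 FPKM in STZ, and Col6a6 0.14 and 0.697 FPKM. In a fit without the filter 7 of these 16 were called higher in STZ (34.1% of 20590 genes were), among them Col13a1 (limma adjusted p = 5.4e-06), Col6a6 (0.00039) and Lama3 (0.0069).

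Genes that act with these chains were counted from lists by role. Of 12 tested other basement membrane components, 10 rose in STZ and none fell (median log2 difference 0.86). Ntn4, a netrin that binds laminin, went from a mean of 2.44 FPKM in control to 9.35 FPKM in STZ (log2 difference 1.58, limma adjusted p = 5.5e-09), and Sparc, a collagen-binding glycoprotein, from 113.9 to 313 FPKM (1.43). Of 18 genes for chain modification and folding, 14 rose and 1, Sec23a, fell (median 0.68), and Fkbp10, a collagen chaperone, rose by 1.28. Of 7 trimming and cross-linking genes, 4 rose and Pcolce2 fell, with the transglutaminase Tgm2 at 2.01. One of the risen genes, Loxl2, entered the test only through the STZ libraries, and 3 of 6 rose without it.

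Of 14 receptors, 10 rose and Sgca fell, led by the collagen receptor Ddr1, which went from a mean of 5.31 FPKM in control to 28.1 FPKM in STZ, and Itgb1, the beta subunit shared by most matrix integrins, was higher by 0.98. Without Ddr2, which passed the filter only through STZ, 9 of 13 rose. Matrix breakdown enzymes and their inhibitors rose in 11 of 12 cases (median 1.14), both the protease Mmp11 (1.48) and the inhibitor Timp3 (1.28), and in 8 of 9 without Mmp12, Mmp19 and Ctsk, which passed only through STZ. Members of the TGF-beta pathway, a known inducer of matrix genes, rose in 14 of 14 cases (median 0.80), with Smad3 at 1.42. Against these counts, 43.2% of all tested genes rose. In STZ+AOS, STZ+AOS-FMT and STZ+control-FMT, other basement membrane components were lower than in STZ in 11, 10 and 8 of 12 cases, modification and folding genes in 14, 13 and 13 of 18, receptors in 10, 10 and 9 of 14 (9, 9 and 8 of 13 without Ddr2) and TGF-beta pathway genes in 14 of 14 each time. Among all genes 43.1%, 44.5% and 39.9% were lower. Sertoli markers were lower in 15 of 15 each time, and their part in these counts was not tested.

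The STZ+AOS group asks what AOS adds to STZ, and the transplant groups ask the same of transferred microbiota. All 3 comparisons use the same STZ libraries, so their values are given side by side and are not independent. In STZ+AOS, 3 members were higher and 23 lower than in STZ (background 11.9% and 43.1%), 20 members lay wholly below the STZ libraries (background 41.1%), with a median of -0.41 against -0.17 over all genes. In STZ+AOS-FMT, 4 were higher and 20 lower (background 12% and 44.5%, median -0.33 against -0.18), 18 without overlap (background 42.7%), and in STZ+control-FMT 3 were higher and 16 lower (background 11.4% and 39.9%, median -0.21 against -0.15), 16 without overlap (background 38.2%). Col4a5, Col4a6, Lama4 and Lama5, called lower each time, passed the filter through the STZ libraries alone, which favours such calls. Among the other 35 members 19, 16 and 12 were lower, where 41.9%, 43.4% and 38.8% of the genes that pass without STZ were. With median centring the splits were 8 higher and 14 lower, 13 and 10, and 11 and 9, without shares of all genes to set beside them.

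Basement membrane collagens were lower in 7, 7 and 6 of 8 and laminins in 8, 8 and 8 of 9, in the order STZ+AOS, STZ+AOS-FMT and STZ+control-FMT. The share of all tested genes that were lower was 43.1%, 44.5% and 39.9%. Without the 4 genes that passed through STZ alone the class counts were 5, 5 and 4 of 6 and 6, 6 and 6 of 7. With median centring Col4a6 turned to 0.05, 0.14 and 0.03, and Lama5 to 0.01 in STZ+control-FMT. Lama1 was lower by 1.08, 1.16 and 1.08 on the log2 scale (limma adjusted p = 9.8e-07, 3.6e-07 and 9.8e-07). Col18a1 had log2 differences of -1.43, -1.44 and -1.34 and Lamc1 of -1.34, -1.31 and -1.23. Col4a1 had log2 differences of -1.04, -1.19 and -0.94. In all these genes the treated libraries lay below every STZ library.

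Calls of interstitial genes were not the same in the 3 comparisons, and a difference between treated groups was tested for the transplants only, as given after these values. Col1a2 was lower than in STZ by -0.93 in STZ+AOS (limma adjusted p = 0.0075) and -0.85 in STZ+AOS-FMT (limma adjusted p = 0.012), and was not called in STZ+control-FMT (-0.38, limma adjusted p = 0.24). Col3a1 had log2 differences of -0.87, -0.79 and -0.01, the first 2 called (limma adjusted p = 0.015, 0.025 and 0.97). Col6a1 had log2 differences of -0.89, -0.87 and -0.44, the first 2 called. With median centring the limma adjusted p of Col3a1 was 0.079 in STZ+AOS and 0.15 in STZ+AOS-FMT, and without STZ replicate 3 it was 0.1 and 0.15. The Col1a2 call in STZ+AOS-FMT ended too (limma adjusted p = 0.08 and 0.077). Fibrillar collagens were lower in 2, 2 and 0 of 6 and type VI collagens in 3, 2 and 0 of 5. Of all tested genes 43.1%, 44.5% and 39.9% were lower.

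The transplant groups were then compared directly. Col3a1 measured 4.15, 6.31 and 5.71 FPKM in STZ+AOS-FMT and 6.97, 9.68 and 13.81 FPKM in STZ+control-FMT, without overlap. The log2 difference of -0.77 ± 0.28 (SE) had an unadjusted p of 0.014 and a limma adjusted p of 0.79, and no member passed. Limma called 0 of 14164 genes in this comparison (866 at an unadjusted p under 0.05, 2 of them members, Col3a1 and Col6a4), so a difference between the transplants was not shown. Its 95% interval for Col3a1 was -1.37 to -0.18. The 3 STZ+control-FMT libraries also held the adipose marker sums of 95.53, 68.25 and 80.32 FPKM, against 19.46 to 61.92 FPKM in STZ+AOS-FMT. In replicate order the fibrillar collagen sums of STZ+control-FMT were 36.17, 42.91 and 52.74 FPKM. The epididymis sums of these libraries were 9.74, 260 and 287.3 FPKM. The part of either tissue in the group difference was not tested. Of the 8 listed epididymis markers 4 were tested, and Lcn5 was listed at 0 in 17 libraries.

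Few members were higher than in STZ, and these were among the more abundant chains. Col22a1 was higher by 0.31, 0.31 and 0.25 in STZ+AOS, STZ+AOS-FMT and STZ+control-FMT (limma adjusted p = 0.0092, 0.0084 and 0.029, the last 0.18 without STZ+control-FMT replicate 3), and Col26a1 by 0.27, 0.47 and 0.45 (limma adjusted p = 0.05, 0.0023 and 0.0038). The first of these, just under the threshold, was 0.25 without STZ+AOS replicate 3. Col20a1 was higher by 0.28, 0.44 and 0.44, called in the transplant groups (limma adjusted p = 0.063, 0.0059 and 0.0069). Col16a1 was called higher in STZ+AOS (0.14) and Col2a1 in STZ+AOS-FMT (0.27). The letters-only match Col4a3bp was called in 1 comparison, lower in STZ+AOS-FMT by -0.21 (limma adjusted p = 0.0088).

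**Figure D5:**
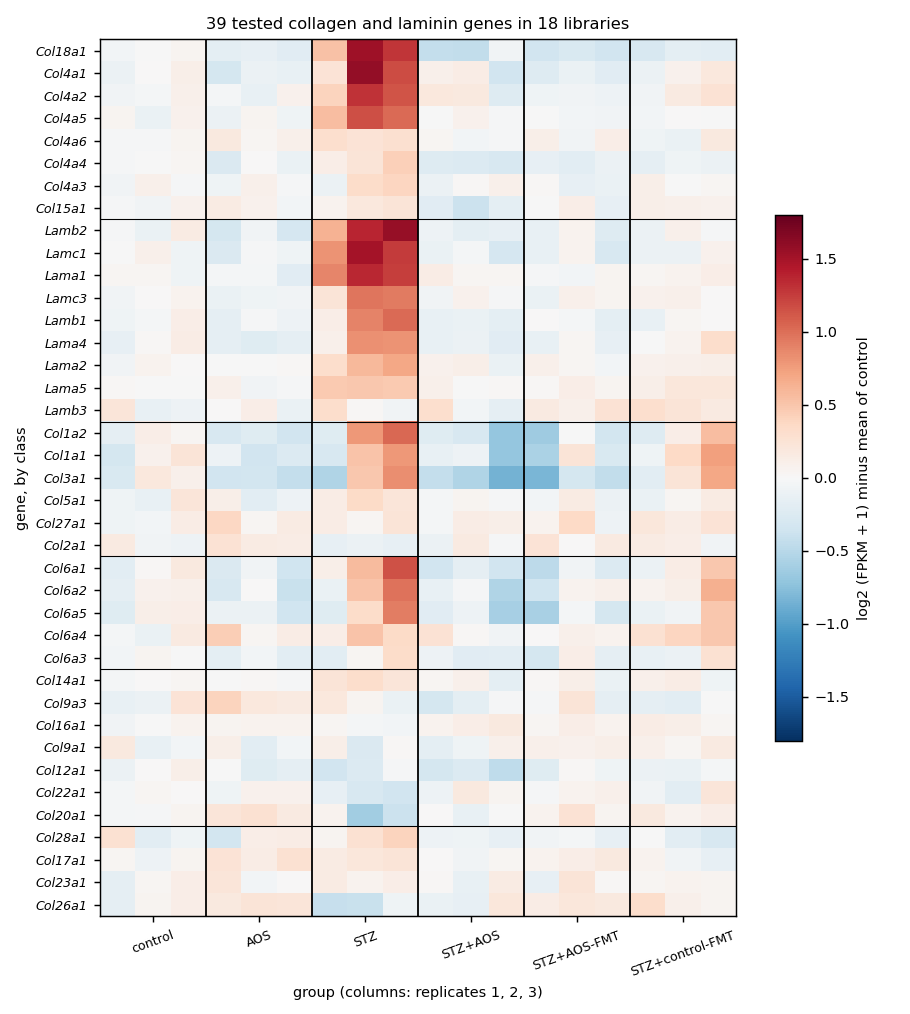
Log2(FPKM + 1) of the 39 tested members in the 18 libraries, each gene relative to its control mean, ordered by class and grouped by treatment. The STZ columns are high for most laminins and basement membrane collagens, with STZ replicate 1 mostly paler. In these classes the columns of the other groups are mostly near the control mean. Col3a1 ranges more widely, from 4.05 FPKM in STZ+AOS replicate 3 to 13.81 FPKM in STZ+control-FMT replicate 3 (control mean 8.187 FPKM).

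Set against control, no member was called in AOS, STZ+AOS, STZ+AOS-FMT or STZ+control-FMT by limma, with 1, 5, 0 and 2 members at an unadjusted p under 0.05 (among all genes 1273, 1130, 927 and 883). Over all genes 0, 6, 0 and 0 were called, or 0.0141% higher and 0.0282% lower in STZ+AOS. The member medians were -0.04, -0.04, -0.01 and 0.07. A p that misses the threshold does not show that these groups equal control. For the difference between the AOS effect with STZ and without it, 14 members were lower and 0 higher (background 29.1% and 6.12%), 6 of them basement membrane collagens and 7 laminins. Col4a5, Col4a6 and Lama5 among them passed the filter only through the STZ libraries used in this term. Of the 35 members that passed without those libraries 11 were lower, where 28% of genes were. The largest was Col18a1 at -1.25 (limma adjusted p = 0.0016).

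Collagen and laminin transcripts are long and rich in G and C. The longest GENCODE transcript of a member had a median of 6046 bases, against 2981 bases over all genes in the table, and 54.5% G and C against 49.1%. All 55 had a GENCODE match, with a median of 46 exons.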

How the data were processed

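RNA was measured in 18 whole-testis libraries in 6 groups of 3. The deposited table gives 1 value per gene and library, with no unit in its header. The authors' deposited values were read as FPKM, from the steps between low values, which shrink with transcript length, and RPKM cannot be told apart. The submitters' processing notes name Bowtie 0.12.2 and mm10 without a role, and the counting tool is not given in the sources used here. Read depth is unknown, so no counting interval was computed. Steps in 323 genes gave relative depths between 0.921, in STZ replicate 1, and 1.02. No other library was below 1.

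Genes with at least 1 FPKM in 3 or more libraries were tested on log2(FPKM + 1), a scale that understates changes of low genes. A model with a mean for each of the 6 groups was fitted across 14164 genes with limma 3.58.1 in R 4.3.3 (trend on mean level), with Benjamini-Hochberg adjustment over all genes and a threshold of 0.05. The fit was tested on simulated data. Alternatives were a pseudocount of 0.1, no filter, a filter on the mean, median centring, quantile normalization, a replicate block, only the compared groups, and leaving out libraries. The filter on the mean and the fit without the 3 libraries with epididymis markers were chosen after seeing the data. No pairing of samples is stated in the labels: same-numbered libraries had deviations correlated between -0.205 and 0.201.

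The members and gene lists, including the genes named by mean level and by size of change, were chosen with earlier results of these data known. Named were the 4 members with the highest mean in each class, the 5 largest increases and every decrease in STZ, and members called in comparisons with fewer than 6 calls. Other members named, the chain ratios and the genes of the fibrillar class without STZ replicate 1 were chosen after their values were seen. Gene positions are from GENCODE M21 on GRCm38 and sequences from the RefSeq promoter table. The result of a single member is not reported here.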

Additional observations from a re-analysis of the deposited data

Results flagged for a closer look

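The AOS effect differed between mice with and without STZ for 14 members by the interaction term of the limma model (adjusted over 14164 genes). All 14 were lower, or 35.9% of tested members, against 29.1% of all genes. Of the 35 members that passed the filter without the STZ libraries 11 were lower, against 28% of genes. The log2 differences, AOS effect with STZ minus AOS effect without STZ, were -1.25 for Col18a1, -1.22 for Lamc1, -1.1 for Lamb2, -1 for Lama1, -0.87 for Col4a2, -0.85 for Col4a5, -0.73 for Lamb1, -0.62 for Lamc3, -0.52 for Lama2, -0.48 for Col15a1, -0.44 for Lama5, -0.42 for Col17a1, -0.4 for Col4a6 and -0.39 for Col4a4. For Lama1 the effect was -1.08 with STZ and -0.09 without it, and for Col15a1 it was -0.41 and 0.06. Of the 14 members all but Col15a1 were also called lower than STZ in STZ+control-FMT, whose label names no AOS. A fall particular to AOS was not tested. Col18a1, Col4a5, Lama1, Lamb2 and Lamc1 were called under each of the 19 alternatives run. The interaction uses the STZ libraries, which were high for these genes, and Col4a5, Col4a6 and Lama5 passed the filter only through them.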

How the results depend on the processing

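Of the 20 member calls in STZ against control, 8 held under all 14 alternatives run, and of the calls against STZ 11 of 26 held in STZ+AOS, 12 of 24 in STZ+AOS-FMT and 8 of 19 in STZ+control-FMT. Counts are given as higher then lower. In STZ against control there were 10 and 7 with median centring, 9 and 9 with quantile normalization and 10 and 1 with only the compared groups, and 1 lower without the 3 libraries with epididymis markers. In STZ+AOS against STZ there were 8 and 14, 6 and 12, and 1 and 15 with the same 3 settings. In STZ+AOS-FMT against STZ there were 13 and 10, 11 and 10, and 2 higher with only the compared groups. In STZ+control-FMT against STZ there were 11 and 9, 11 and 9, and 1 and 9, and 1 higher without the libraries with epididymis markers. For the interaction there were 2 and 6, and 1 and 5. The shares of all genes under these settings are not given here, and the cause was not tested. Leaving out each replicate in turn gave 14 to 26 and 0 to 2 in STZ against control, 1 to 3 and 17 to 28 in STZ+AOS, 3 to 4 and 14 to 25 in STZ+AOS-FMT, 2 to 4 and 13 to 19 in STZ+control-FMT, and 0 to 1 and 12 to 22 for the interaction, and 0 in the comparisons with no call.

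With median centring the direction in STZ against control turned for Col14a1 (-0.09), Col15a1 (-0.18), Col17a1 (-0.15), Col1a1 (-0.01), Col23a1 (-0.23), Col27a1 (-0.21), Col28a1 (-0.1), Col3a1 (-0.08), Col4a3 (-0.14), Col4a4 (-0.08), Col4a6 (-0.06), Col5a1 (-0.11), Col6a3 (-0.29), Col6a4 (-0.02), Col9a3 (-0.3) and Lamb3 (-0.25). With quantile normalization it turned for Col14a1 (-0.11), Col15a1 (-0.23), Col17a1 (-0.06), Col1a1 (-0.07), Col23a1 (-0.18), Col27a1 (-0.27), Col28a1 (-0.1), Col3a1 (-0.05), Col4a3 (-0.16), Col4a4 (-0.16), Col5a1 (-0.17), Col6a3 (-0.23), Col6a4 (-0.08), Col6a5 (-0.01), Col9a3 (-0.36) and Lamb3 (-0.25). Leaving out each library in turn gave -0.05 to 0.01 for Col16a1 (0.01 without the libraries with epididymis markers), -0.02 to 0.66 for Col3a1, -0.08 to 0.18 for Col6a3, -0.12 to 0.06 for Col9a1, -0.03 to 0.16 for Col9a3 and -0.02 to 0.2 for Lamb3. Against STZ, median centring and then quantile normalization turned Col14a1 (0.08 and 0.12) and Col17a1 (0.14 and 0.08) in STZ+AOS, and Col14a1 (0.11 and 0.13), Col4a3 (0.08 and 0.1) and Col4a6 (0.14 and 0.04) in STZ+AOS-FMT. Median centring alone turned Col4a6 in STZ+AOS (0.05), and Col17a1 (0.07), Col4a6 (0.03) and Lama5 (0.01) in STZ+control-FMT. Quantile normalization alone turned Col28a1 in STZ+AOS (0.02), Col4a4 in STZ+AOS-FMT (0.03) and Col4a4 in the interaction (0.01).

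The labels state no pairing, and only 2 of 45 same-numbered pairs correlated above 0.1. With the replicate number as a block, 16 members were higher and 3 lower in STZ against control, and Col6a4 (0.32) was no longer called (limma adjusted p = 0.055).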
